A study of Mus musculus with 20 samples.

Results

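The transcripts described here are long non-coding RNAs (lncRNAs) of rat lung, taken as every row of the deposited gene table that is typed lncRNA, lies outside chromosomes X and Y and reached at least 2 FPKM (fragments per kilobase of transcript per 1e6 mapped fragments) in at least 10 of the 20 samples. The rule gave 339 members, out of 2007 lncRNA rows and 23799 rows in all. It also leaves out H19, which this table types as protein-coding. The 4 groups were bleomycin females, sham females, bleomycin males and sham males, with 5 Sprague Dawley rats each. Bleomycin is a DNA-breaking drug used to injure the lung, and the sham animals are the uninjured controls. All animals belonged to 1 cohort matched on body weight. The dose, the route, the age and the time of tissue collection are not in the labels. Whole lung was used, so that in every result below fewer cells of a type and less RNA per cell cannot be told apart.

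An lncRNA is transcribed and spliced much as a messenger RNA is, but holds no long open reading frame. Some act from the site where they are made on the gene beside them. Others serve mainly as the precursor of a small RNA, such as a small nucleolar RNA (snoRNA), which is cut out of an intron and then guides the modification of ribosomal RNA. Fendrr, the 1 member whose symbol is that of an lncRNA in mouse RefSeq, is transcribed away from the start of Foxf1, a transcription factor of lung mesenchyme and endothelium, and is needed for mouse heart and body wall development.

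The label lncRNA held only in part. Of the 339 members, 273 have a gene ID alone, 19 a bare locus name and 47 a symbol. Among the symbols, 39 matched mouse RefSeq (the genes of assembly GRCm38.p6), where 38 of them are protein-coding and 1, Fendrr, is an lncRNA. Rows such as Gpx3 (glutathione peroxidase 3, secreted into plasma), Rhob (a small GTPase), Cebpa (a transcription factor of alveolar and myeloid cells) and Rab32 (a GTPase of lysosome-related organelles) are therefore typed lncRNA in the table but carry the names of protein-coding genes. The Gid4, Ccdc71l and Samd8 members lie beside protein-coding rows of the same symbol, and 2 members are both called Sumo3, so that reads of these genes are divided between rows. Malat1, Neat1, Meg3 and Gas5 were not found under those symbols and are not analysed here.

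No member overlapped a protein-coding row, and neither did any of the 2007 lncRNA rows, while 16.7% of protein-coding rows overlapped a protein-coding row of the other strand. By the table's coordinates, 258 members lay within 5 kb and 134 within 1 kb of a protein-coding row, at a median distance of 1423 bp. The commonest placement, in 145 members, was past the end of the nearest gene on the same strand. Another 114 faced that gene end to end on the opposite strand, 40 faced it start to start, and 40 lay before its start. The members spanned a median of 2528 bp (546 to 91442 bp), 290 of them had a single transcript, and they came from 20 chromosomes. Overlap with another member, on either strand, was found for 34. The library kit was stranded, but use of strand in counting is not stated, so it is uncertain whether reads of such pairs were kept apart.

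The mean FPKM of the members over all 20 samples had a median of 6.80 and ran from 1.84 to 194. It reached 10 in 123 members and 50 in 13. The 5 highest members were Gpx3 with 194 FPKM, ENSRNOG00000068880 with 153, Potef (named for a gene family with an actin-like part, so that reads shared with actin copies are uncertain) with 151, ENSRNOG00000067710 with 134 and ENSRNOG00000063787 with 128. Both Gpx3 comparisons of bleomycin with sham missed the threshold, with a log2 fold change of 0.02 ± 0.24 in females and 0.36 ± 0.24 in males. At the level rule itself, ENSRNOG00000065435 and ENSRNOG00000067217 were just inside, with a tenth-highest value of 2.02 and 2.03 FPKM, and ENSRNOG00000065578 and LOC103693505 were just outside, both with 2.00. FPKM was at least 2 in all 20 samples for 239 members.

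Library totals, in units of 1e6 counts, ran from 68.6 to 87.5, of which the members took 0.997 to 1.27%. Principal component 1 of all tested genes (30.5% of the variance) separated bleomycin from sham lungs. The 5 lung markers (Sftpc, Sftpb, Ager, Scgb1a1 and Pecam1) were abundant in every library, with a summed level of 17909 to 24725 FPKM in bleomycin females, 36395 to 53094 FPKM in sham females, 7608 to 22369 FPKM in bleomycin males and 29553 to 49439 FPKM in sham males. Fat markers (Adipoq, Plin1, Cfd and Lep) summed to 4.47 to 18.1 FPKM in bleomycin females, 5.34 to 29.4 FPKM in sham females, 9.30 to 275 FPKM in bleomycin males and 4.35 to 15.1 FPKM in sham males, and the part of these shifts in the members' results was not tested. On component 2 (14.2%) bleomycin male 4 lay among the bleomycin females. At least 50 FPKM of Alb (albumin, a liver transcript) was found in 5 libraries, which were sham female 1, bleomycin males 2 and 5 and sham males 3 and 5. The median SD of the members' log2 CPM (library-scaled counts) was 0.23 in bleomycin females, 0.15 in sham females, 0.32 in bleomycin males and 0.19 in sham males.

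Bleomycin changed members in both sexes. In the edgeR quasi-likelihood test, with Benjamini-Hochberg adjustment over all 15875 tested genes and a call at an adjusted p under 0.05, 28 of the 339 members rose and 47 fell in bleomycin females against sham females. That is 22.1% of the members, against 21.6% of all tested genes (13.2% higher and 8.38% lower). In bleomycin males against sham males 85 members rose and 48 fell, 39.2% of the members, against 41.9% of all tested genes (22.6% higher and 19.3% lower). Both totals lie near the background. The median log2 fold change of the members was -0.08 in females (-0.00 over all tested genes) and 0.13 in males (0.04 over all tested genes). Among the calls, 9 members rose and 4 fell at least 2-fold in females, where 7% of all tested genes did either. In males 22 rose and 11 fell at least 2-fold, where 12.7% of all tested genes did either. By level, 32.7% of the highest tertile of members were called in females and 21.2% of the lowest, and 54.9% and 28.3% in males. With library totals in place of TMM scaling the male split was 92 higher to 31 lower. With only the 2 male groups in the fit 87 members were called.

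Calls in both sexes numbered 45, which is 60.0% of the female calls and 33.8% of the male calls, and 13.3% of the members. Over all tested genes the shares were 65.5%, 33.8% and 14.2%. Of the 45, 20 rose in both, 22 fell in both and 3 fell in females and rose in males. Opposite directions made up 6.67% of these double calls, against 1.51% over all tested genes, a difference that was not tested. Across the 339 members the female and male log2 fold changes had a Pearson r of 0.56 and a Spearman rho of 0.50, from separate animals that share the assay and the gene models.

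**Figure D1:**
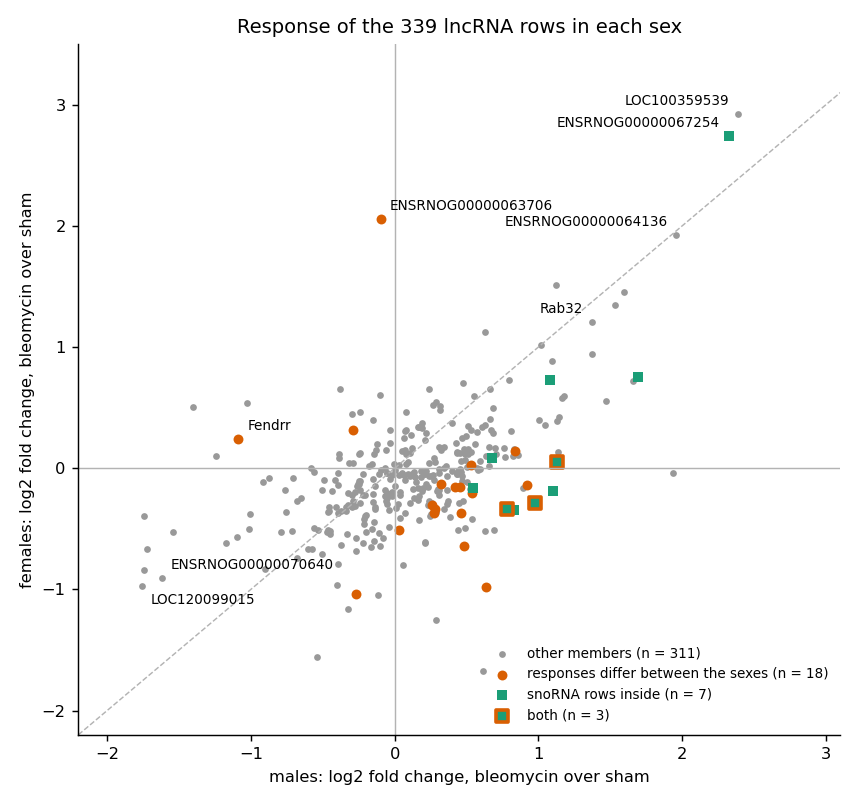
Log2 fold change of each of the 339 members, bleomycin over sham, in females (vertical axis) against males (horizontal axis), with the dashed line where both are equal. LOC100359539 and ENSRNOG00000067254 lie at the upper right, the squares that mark members with snoRNA rows inside lie mostly right of 0 near the horizontal axis, and Fendrr and ENSRNOG00000063706 lie far above the dashed line.

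At least 2-fold rises in both sexes were found for 7 members: ENSRNOG00000064136 and ENSRNOG00000064142, which lie past the ends of collagen genes, and ENSRNOG00000067254, LOC100359539, Rab32, ENSRNOG00000064568 and ENSRNOG00000063514. ENSRNOG00000064136 starts 159 bp past the end of Col5a1, on the same strand (chromosome 3, 11354747 to 11357054, plus strand, as the table gives them), where Col5a1 encodes the collagen V chain that starts fibril assembly. It had 27.3, 23.5, 23.4, 24.2 and 33.9 FPKM in bleomycin females, against 6.86, 7.82, 6.94, 6.17 and 6.35 FPKM in sham females. Male libraries showed 56.5, 49.3, 63.9, 46.1 and 33.4 FPKM in bleomycin males, against 13.8, 11.9, 9.19, 13.0 and 15.2 FPKM in sham males. Within each sex every bleomycin library was above every sham library. The log2 fold change was 1.92 ± 0.17 (adjusted p = 1.3e-07) in females and 1.96 ± 0.17 (adjusted p = 4.9e-07) in males, where Col5a1 itself changed by 2.40 ± 0.21 (adjusted p = 1.1e-07) and 1.59 ± 0.20 (adjusted p = 1.2e-05). Reads that run past the annotated end of Col5a1 cannot be told from reads of this row.

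ENSRNOG00000064142, placed 1942 bp past the end of Col8a1 on the same strand, rose by 1.34 ± 0.24 in females (adjusted p = 0.00050) and 1.53 ± 0.25 in males (adjusted p = 9.3e-05), as log2 fold changes. Col8a1, a short-chain collagen of vessel walls, changed by 1.91 ± 0.31 in females (adjusted p = 0.00019) and 0.47 ± 0.30 in males (adjusted p = 0.22). Of the 4 fibroblast markers, Col1a1 and Col3a1 rose in each sex, and Pdgfra and Dcn passed the test in neither. Their summed level was 744 to 1097 FPKM in bleomycin females, 170.1 to 271 FPKM in sham females, 1003 to 1378 FPKM in bleomycin males and 347 to 592 FPKM in sham males, and its part in these results was not tested.

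The 2 members with at least 2 FPKM in all 10 bleomycin libraries and in no sham library were ENSRNOG00000067254 and LOC100359539. Both therefore met the level rule through the bleomycin libraries alone and had to be higher there, so their values are a description, given without a test, and their calls in the counts above follow from the rule. ENSRNOG00000067254 had 3.75, 3.77, 4.06, 2.69 and 4.62 FPKM in bleomycin females, against 0.762, 0.493, 0.732, 0.379 and 0.406 FPKM in sham females. The male libraries had 3.97, 2.96, 3.33, 3.78 and 2.62 FPKM in bleomycin males, against 0.811, 0.508, 0.512, 0.774 and 0.657 FPKM in sham males. Its log2 fold change was 2.74 ± 0.22 in females and 2.32 ± 0.22 in males. It contains the snoRNA row LOC120097978 and lies 1089 bp before the start of Secisbp2, a selenoprotein translation factor, whose own log2 fold change was 0.01 ± 0.13 in females (adjusted p = 0.98) and 0.39 ± 0.13 in males (adjusted p = 0.023).

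LOC100359539, which the table describes as a ribonucleotide reductase M2 polypeptide, is a near copy by name of Rrm2, the small subunit of the enzyme that makes deoxynucleotides, and its reads are uncertain for that reason. It had 5.39, 3.26, 4.00, 2.45 and 3.35 FPKM in bleomycin females, against 0.917, 0.282, 0.523, 0.457 and 0.226 FPKM in sham females. In males there were 3.59, 2.60, 2.35, 4.73 and 2.44 FPKM in bleomycin males, against 0.906, 0.912, 0.377, 0.348 and 0.424 FPKM in sham males. The log2 fold change was 2.92 ± 0.38 in females and 2.39 ± 0.37 in males, and that of Rrm2 was 2.87 ± 0.28 (adjusted p = 3.4e-07) and 2.17 ± 0.27 (adjusted p = 8.2e-06). All 4 cell division markers (Mki67, Top2a, Plk1 and Birc5) rose in each sex, with summed levels of 42.8 to 61.8 FPKM in bleomycin females, 5.22 to 8.51 FPKM in sham females, 27.8 to 51.0 FPKM in bleomycin males and 7.78 to 12.3 FPKM in sham males.

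Rab32 had 9.96, 8.58, 8.33, 6.85 and 7.97 FPKM in bleomycin females, against 3.91, 4.05, 3.39, 3.22 and 3.19 FPKM in sham females. The male values were 12.3, 10.2, 6.72, 8.66 and 9.55 FPKM in bleomycin males, against 4.77, 3.65, 2.97, 3.32 and 3.12 FPKM in sham males. The groups of each sex stood apart, and the log2 fold change was 1.20 ± 0.13 (adjusted p = 1.3e-06) in females and 1.37 ± 0.13 (adjusted p = 8.8e-07) in males. Macrophage markers moved with it: of the 3 that could be tested (Cd68, C1qa and Cd163), 2 rose in females and 3 in males, and the summed level of all 4 was 65.7 to 198 FPKM in bleomycin females, 55.2 to 75.1 FPKM in sham females, 139 to 362 FPKM in bleomycin males and 43.0 to 59.6 FPKM in sham males. Their part in the Rab32 result was not tested. ENSRNOG00000064568, with no protein-coding row within 154533 bp, had at least 3.12 FPKM in bleomycin females and 2.15 FPKM in bleomycin males. Sham females had at most 2.20 FPKM (median 1.47) and sham males at most 1.71 FPKM (median 1.53). It thus met the level rule through the bleomycin libraries. Its log2 fold changes of 1.46 ± 0.29 in females and 1.60 ± 0.29 in males are therefore a description, given without a test.

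**Figure D2:**
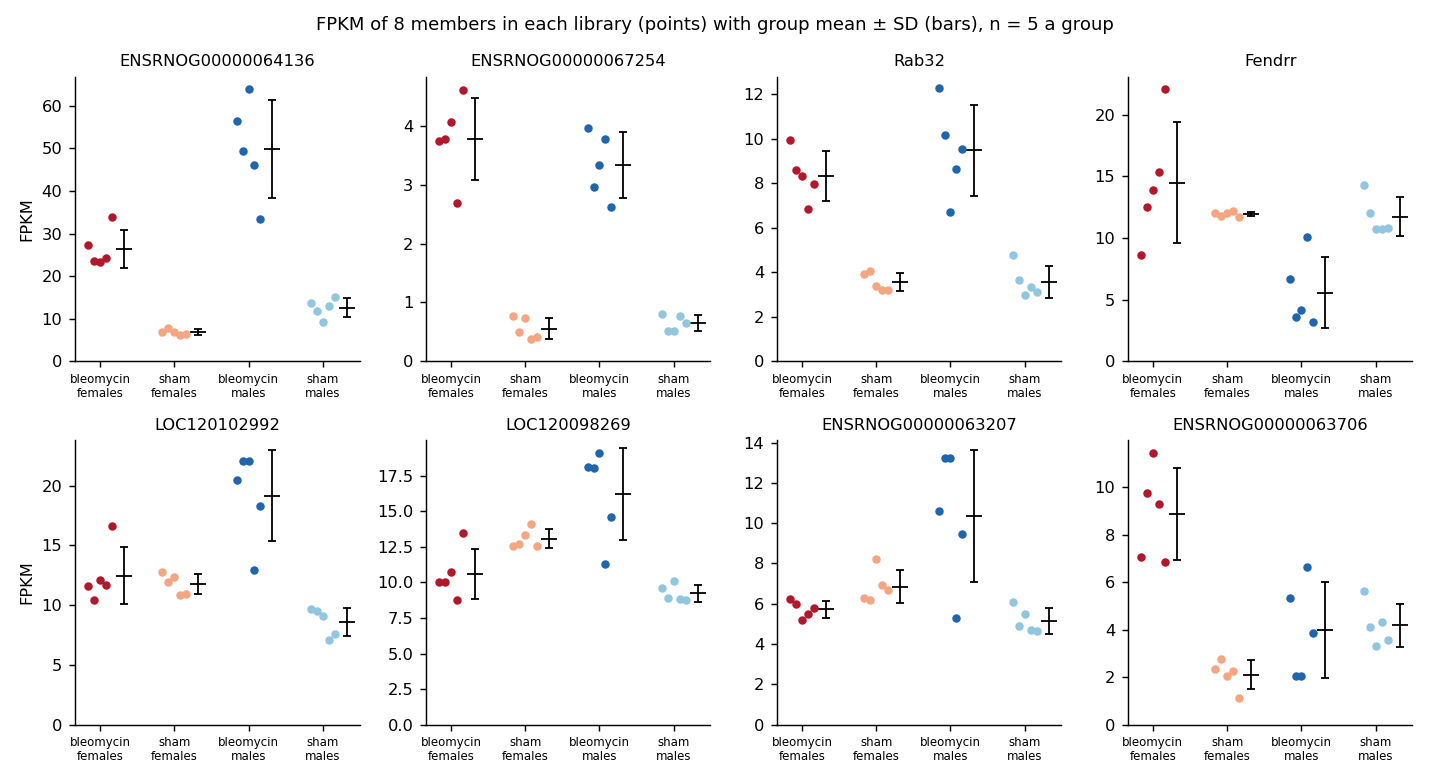
FPKM of 8 members in every library (points) with the group mean ± SD (bars, n = 5), for bleomycin females, sham females, bleomycin males and sham males from left to right. The first 3 panels show bleomycin libraries above sham libraries in both sexes, and the remaining panels show members whose bleomycin response differed between the sexes.

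Falls were smaller, and no member fell at least 2-fold in both sexes. ENSRNOG00000070640 lies 2856 bp from Dll4, the Notch ligand of vessel sprouting, with starts facing. Its levels were 2.06, 2.49, 2.26, 2.98 and 4.63 FPKM in bleomycin females, against 5.22, 5.38, 5.25, 4.97 and 5.42 FPKM in sham females. The male levels were 1.67, 1.13, 0.726, 2.13 and 1.03 FPKM in bleomycin males, against 4.67, 4.72, 4.04, 3.01 and 3.80 FPKM in sham males. Every bleomycin library was below every sham library of its sex, and the log2 fold change was -0.90 ± 0.24 (adjusted p = 0.011) in females and -1.62 ± 0.25 (adjusted p = 6.2e-05) in males. For Dll4 the values were -0.83 ± 0.31 (adjusted p = 0.065) in females and -1.91 ± 0.32 (adjusted p = 0.00014) in males. LOC120099015 fell by log2 fold changes of -0.97 ± 0.26 (adjusted p = 0.010) in females and -1.76 ± 0.26 (adjusted p = 5.1e-05) in males, again with no overlap within a sex. ENSRNOG00000063787, among the 5 highest members, changed by -0.50 ± 0.12 (adjusted p = 0.0071) in females and -0.56 ± 0.12 (adjusted p = 0.0015) in males, but it overlaps ENSRNOG00000071138 on the other strand.

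ENSRNOG00000069152, 3660 bp past the end of Zfp655 (a zinc finger gene), rose by a log2 fold change of 0.72 ± 0.24 (adjusted p = 0.035) in females and 1.65 ± 0.24 (adjusted p = 3.7e-05) in males. ENSRNOG00000062522 had 29.7, 45.9, 44.3, 59.3 and 25.7 FPKM in bleomycin females, against 55.6, 41.6, 29.96, 60.5 and 75.2 FPKM in sham females. Its values in males were 18.7, 96.0, 7.27, 30.9 and 49.2 FPKM in bleomycin males, against 64.6, 113, 177, 173 and 105 FPKM in sham males. Bleomycin and sham libraries overlapped in both sexes. The log2 fold change was -0.39 ± 0.46 (adjusted p = 0.59) in females and -1.74 ± 0.47 (adjusted p = 0.0063) in males, and the difference of the responses was 1.35 ± 0.65 (adjusted p = 0.19). In males ENSRNOG00000066162 fell with -1.54 ± 0.28 (adjusted p = 0.00030), and ENSRNOG00000068345, facing Lpp end to end at 96 bp, fell with -1.24 ± 0.39 (adjusted p = 0.015), which was -1.29 (adjusted p = 0.087) without the Alb libraries.

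Among the members called in females, the largest falls were those of ENSRNOG00000069461, ENSRNOG00000067913, ENSRNOG00000068478 and ENSRNOG00000063182. ENSRNOG00000069461 lies 4437 bp past the end of Ephb4, a receptor of venous endothelium, and averaged 1.93 ± 0.601 FPKM in bleomycin females, 4.51 ± 0.760 FPKM in sham females, 4.86 ± 3.38 FPKM in bleomycin males and 3.79 ± 1.28 FPKM in sham males (SD, n = 5). Its log2 fold change was -1.25 ± 0.35 (adjusted p = 0.015) in females and 0.29 ± 0.35 (adjusted p = 0.53) in males. ENSRNOG00000067913, with a log2 fold change of -1.16 ± 0.35 (adjusted p = 0.021), lost its call without sham female 5, bleomycin female 3 or bleomycin female 5, and ENSRNOG00000068478, with -1.04 ± 0.32 (adjusted p = 0.024), without sham female 2 or 5 or bleomycin female 3.

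In 10 members the table's coordinates place snoRNA or scaRNA rows inside, 22 rows in all, and 8 of these members rose in bleomycin males. The group was formed after the table had been seen, so its counts are a description. In bleomycin males 8 of the 10 rose and 0 fell in the edgeR test (9 and 0 at an unadjusted p under 0.05, and 9 and 0 in DESeq2), where 22.6% of all tested genes rose and 19.3% fell. The median log2 fold change was 1.03, against 0.04 over all tested genes. In bleomycin females 2 rose and 0 fell (3 and 1 at an unadjusted p under 0.05, and 2 and 1 in DESeq2), where 13.2% of all tested genes rose and 8.38% fell, with a median of -0.06 against -0.00. The 2 were ENSRNOG00000067254, whose rise the level rule had fixed, and LOC102547700, and both were also among the 8 in males. LOC102547700 had at least 2.73 FPKM in bleomycin females and 3.53 FPKM in bleomycin males. Its sham medians were 2.21 FPKM in females and 1.70 FPKM in males. It thus met the level rule only with bleomycin libraries counted, so its rises too are a description. Between the sham groups, females over males, the median of the 10 was 0.43 (0.00 over all tested genes), and 0 were called. Taking the male response from the female one gave a median of -1.01, and 3 of the 10 were called, with the female response lower in each, where 2.04% of all tested genes were called lower. Without the 5 Alb libraries the median was -0.62 and 1 of the 10 was called, and without those and bleomycin male 4 it was -0.69 and 3 were called. Across the alternatives the male count ran from 5 to 9, all higher, the female count from 1 to 4, and the count of differing responses from 1 to 4.

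The 3 whose responses differed were LOC120102992, LOC120098269 and ENSRNOG00000063207. In all 3, every sham female was also above every sham male, as in 16 of the 339 members. The difference of the responses thus includes a gap between the sham groups. LOC120102992 holds the rows Snora61, a guide of pseudouridylation, Snord99, a guide of ribose methylation, and 2 unnamed snoRNA rows (chromosome 5, 144504388 to 144507556, plus strand). It had 11.6, 10.5, 12.1, 11.7 and 16.6 FPKM in bleomycin females, against 12.7, 11.95, 12.3, 10.9 and 10.9 FPKM in sham females. Among males it had 20.5, 22.1, 22.1, 12.9 and 18.3 FPKM in bleomycin males, against 9.72, 9.52, 9.12, 7.08 and 7.56 FPKM in sham males. The male groups did not overlap, with bleomycin male 4 the lowest of its group, whereas the female groups did. The log2 fold change was 0.05 ± 0.14 (adjusted p = 0.83) in females and 1.13 ± 0.14 (adjusted p = 6.6e-06) in males, and the difference of the responses was -1.07 ± 0.19 (adjusted p = 0.014).

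LOC120098269 (chromosome 18, 25404131 to 25405980, plus strand, facing Epb41l4a end to end) had 10.0, 10.0, 10.7, 8.75 and 13.5 FPKM in bleomycin females, against 12.6, 12.7, 13.3, 14.1 and 12.6 FPKM in sham females. The male values were 18.1, 18.03, 19.1, 11.3 and 14.6 FPKM in bleomycin males, against 9.61, 8.93, 10.1, 8.81 and 8.74 FPKM in sham males. The male groups stood apart, and the female groups overlapped through bleomycin female 5. It rose in males by 0.78 ± 0.13 (log2 fold change, adjusted p = 0.00012). In females the value was -0.34 ± 0.13 (adjusted p = 0.064), and the difference, -1.12 ± 0.18 (adjusted p = 0.013), kept its call under every alternative run. ENSRNOG00000063207, which holds Snord1c, had 6.24, 5.97, 5.18, 5.47 and 5.80 FPKM in bleomycin females, against 6.26, 6.17, 8.22, 6.94 and 6.69 FPKM in sham females. Its male values were 10.6, 13.2, 13.2, 5.29 and 9.48 FPKM in bleomycin males, against 6.10, 4.88, 5.47, 4.67 and 4.62 FPKM in sham males. Here bleomycin male 4 fell within the sham males. The responses were -0.29 ± 0.18 (adjusted p = 0.28) in females and 0.98 ± 0.18 (adjusted p = 0.00038) in males, with a difference of -1.27 ± 0.26 (adjusted p = 0.019).

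LOC100912041 holds 7 snoRNA rows, among them Snord26, Snord27, Snord28b and Snord30, all guides of ribose methylation. It was the most abundant of the 10, and it overlaps ENSRNOG00000067218 on the other strand. It varied widely within groups, with 28.1, 42.7, 31.6, 22.8 and 39.5 FPKM in bleomycin females, against 25.3, 25.5, 21.7, 13.2 and 10.6 FPKM in sham females. Male libraries had 64.0, 74.7, 30.4, 30.1 and 34.5 FPKM in bleomycin males, against 27.4, 17.98, 8.63, 8.04 and 8.71 FPKM in sham males. Only the male groups stood apart, and the log2 fold change was 0.75 ± 0.33 (adjusted p = 0.12) in females and 1.69 ± 0.34 (adjusted p = 0.00068) in males. Rpl30, a row named for a ribosomal protein and holding 2 snoRNA rows, was 7.55 ± 4.12 FPKM in bleomycin females, 8.35 ± 3.08 FPKM in sham females, 14.4 ± 2.07 FPKM in bleomycin males and 6.52 ± 2.17 FPKM in sham males (SD, n = 5). It rose in males (log2 fold change 1.10 ± 0.33 (adjusted p = 0.012)). Ribosomal protein genes have many processed copies, so that its reads are uncertain. Of the other members of the group, ENSRNOG00000067231 rose in males, although the call was lost when any 1 of 4 libraries was left out, and ENSRNOG00000063261 (holding Scarna15) and ENSRNOG00000069588 (holding Snora60 and Snora71e) were not called in either sex.

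**Figure D3:**
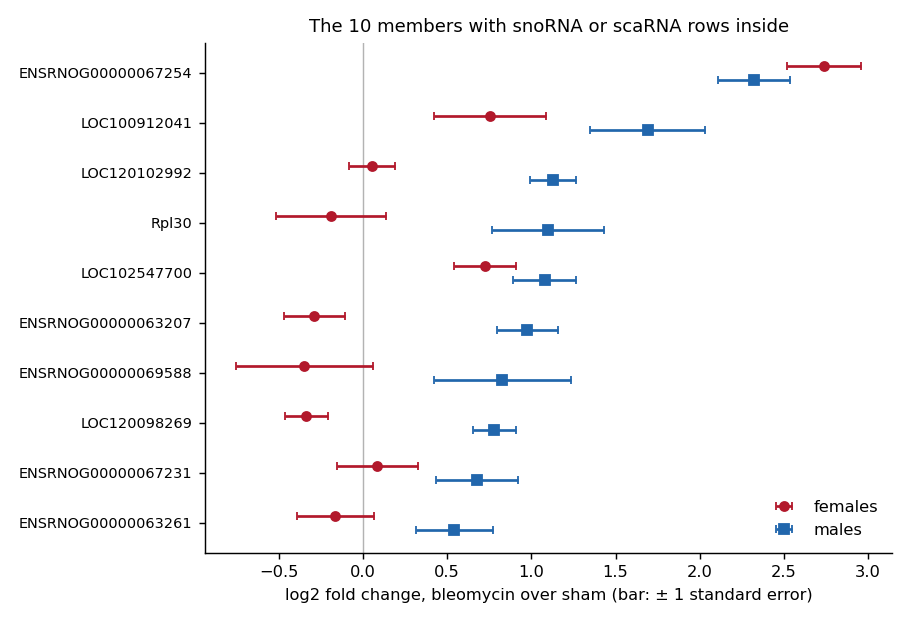
Log2 fold change, bleomycin over sham, of the 10 members with snoRNA or scaRNA rows inside, with circles for females, squares for males and bars of 1 standard error. All 10 male values lie right of 0, from 0.54 to 2.32, and the female values lie on both sides of it, from -0.35 to 2.74.

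Of the 9 proteins of the snoRNA particles that could be tested, 5 rose and 0 fell in females (median log2 fold change 0.47), and 5 rose and 1 fell in males (median 0.44). Nop58, a core protein of the methylation particle, changed by 0.74 ± 0.10 (adjusted p = 3.8e-05) in females and 0.44 ± 0.10 (adjusted p = 0.0025) in males, and Nhp2, of the pseudouridylation particle, by 0.54 ± 0.14 (adjusted p = 0.0069) and 0.69 ± 0.14 (adjusted p = 0.00054). Transcripts that host snoRNAs are often removed by nonsense-mediated decay. Of its 13 factors 1 rose and 1 fell in females, while 3 rose and 7 fell in males. Their summed level was 208 to 221 FPKM in bleomycin females, 191 to 216 FPKM in sham females, 198 to 219 FPKM in bleomycin males and 191 to 214 FPKM in sham males. The part of these factors in the members' results was not tested. Smg6, the endonuclease of that pathway, changed by -0.16 ± 0.12 (adjusted p = 0.38) in females and -0.74 ± 0.12 (adjusted p = 0.00013) in males. The 3 that rose in males were Smg9 by 0.82 ± 0.14 (adjusted p = 0.00020), Magoh by 0.54 ± 0.11 (adjusted p = 0.0011) and Rbm8a by 0.43 ± 0.09 (adjusted p = 0.0013). The 8 p53 targets, genes switched on after DNA breaks, gave 1 rise in females and 6 in males, and between the bleomycin groups 5 were lower in females. Their summed level was 163 to 238 FPKM in bleomycin females, 156 to 166 FPKM in sham females, 278 to 377 FPKM in bleomycin males and 159.7 to 183 FPKM in sham males. Of 7 paraspeckle proteins, the partners of a nuclear lncRNA body, 5 rose in females and 3 in males. Over all tested genes, 13.2% rose and 8.38% fell in females, and 22.6% rose and 19.3% fell in males. Between the bleomycin groups 8.72% of all tested genes were lower in females.

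Fendrr fell in bleomycin males and not detectably in bleomycin females. It lies on chromosome 19, 49121214 to 49153240, minus strand and starts 459 bp from Foxf1, on the opposite strand. It had 8.63, 12.5, 13.9, 15.4 and 22.1 FPKM in bleomycin females, against 12.01, 11.8, 12.03, 12.2 and 11.7 FPKM in sham females. Male rats had 6.71, 3.62, 4.18, 10.1 and 3.16 FPKM in bleomycin males, against 14.3, 12.03, 10.7, 10.7 and 10.8 FPKM in sham males. Every bleomycin male was below every sham male, while the 5 bleomycin females spread to both sides of the tightly grouped sham females. The log2 fold change was 0.24 ± 0.26 (adjusted p = 0.56) in females and -1.09 ± 0.27 (adjusted p = 0.0032) in males. Between the bleomycin groups, females against males, it was 1.37 ± 0.27 (adjusted p = 0.0037). The difference of the responses was 1.33 ± 0.37 (adjusted p = 0.045), a call that was lost on leaving out any of 17 of the 20 libraries (all but bleomycin males 1 and 4 and bleomycin female 1). Without the 5 Alb libraries the male fall was -0.77 (adjusted p = 0.052).

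Foxf1 moved with Fendrr. Its level was 59.0 ± 6.23 FPKM in bleomycin females, 52.7 ± 4.35 FPKM in sham females, 24.4 ± 11.3 FPKM in bleomycin males and 56.6 ± 18.2 FPKM in sham males (mean ± SD, n = 5). The log2 fold change was 0.13 ± 0.27 (adjusted p = 0.77) in females and -1.22 ± 0.27 (adjusted p = 0.0014) in males. Endothelial markers did likewise: of Kdr, Pecam1, Cdh5 and Tek, 1 fell in females and 3 fell in males, and all 4 were higher in bleomycin females than in bleomycin males. Their summed level was 293 to 415 FPKM in bleomycin females, 348 to 399 FPKM in sham females, 145 to 304 FPKM in bleomycin males and 346 to 499 FPKM in sham males. The part of endothelial content in the Fendrr result was not tested.

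Members near Col4a3 and Npr3 were also lower in bleomycin males. ENSRNOG00000070735 ends 75 bp from Col4a3, a collagen of the alveolar basement membrane, and had 44.2, 52.9, 48.9, 69.8 and 66.3 FPKM in bleomycin females, against 44.2, 34.2, 37.7, 32.5 and 41.2 FPKM in sham females. In males it had 36.7, 7.95, 9.67, 43.7 and 20.8 FPKM in bleomycin males, against 64.2, 51.6, 39.3, 37.6 and 47.1 FPKM in sham males. The female groups touched, with a lowest bleomycin female of 44.25 FPKM and a highest sham female of 44.15 FPKM, and the male groups overlapped through bleomycin male 4. Its log2 fold change was 0.54 ± 0.34 (adjusted p = 0.27) in females and -1.03 ± 0.34 (adjusted p = 0.020) in males, and Col4a3 gave 0.48 ± 0.45 (adjusted p = 0.49) and -1.61 ± 0.46 (adjusted p = 0.0091). The male call was lost without bleomycin male 3, at -0.84 (adjusted p = 0.050). ENSRNOG00000068207, 2321 bp past the end of Npr3 (the natriuretic peptide clearance receptor), had a log2 fold change of 1.69 ± 0.45 (adjusted p = 0.016) for bleomycin females against bleomycin males, the largest rise among the members called in that comparison. Its male response was -1.40 ± 0.45 (adjusted p = 0.017), and -1.10 (adjusted p = 0.063) without sham male 3.

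The test of the difference between the sexes called 21 members, 6.19% against 5.69% of all tested genes. The female response was the higher one in 3 (0.885% of the members, against 3.65% of all tested genes) and the lower one in 18 (5.31%, against 2.04%). Of the 18, 13 rose in males, 7 fell in females and 3 did both. The median difference over all members was -0.21 on the log2 scale, against -0.02 over all tested genes. Females over males, the members' median was -0.13 between the bleomycin groups (-0.02 over all tested genes). Between the sham groups it was 0.09 (0.00 over all tested genes), with 249 members above 0 and 90 below. Of the 21 calls, 10 held with any single library left out, and the other 11 were lost on leaving out any of 6 to 17 libraries. Without the 5 Alb libraries 1 call was left, and without those and bleomycin male 4 there were 35.

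ENSRNOG00000063706 had the largest difference of the 21. Its nearest coding row, Card6, is 30525 bp away, and it had 7.05, 9.76, 11.4, 9.30 and 6.86 FPKM in bleomycin females, against 2.34, 2.77, 2.04, 2.28 and 1.12 FPKM in sham females. In males it had 5.33, 2.05, 2.03, 6.63 and 3.84 FPKM in bleomycin males, against 5.63, 4.10, 3.30, 4.32 and 3.57 FPKM in sham males. The female groups stood apart and the male groups overlapped. The response was 2.05 ± 0.31 (adjusted p = 8e-05) in females and -0.09 ± 0.30 (adjusted p = 0.83) in males, a difference of 2.15 ± 0.43 (adjusted p = 0.019). Every sham female was below every sham male, but that difference missed the threshold at -0.98 ± 0.30 (adjusted p = 0.20).

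Mafk, the third member with the higher female response, carries the name of a small Maf transcription factor that pairs with NRF2. It averaged 12.7 ± 1.68 FPKM in bleomycin females, 10.0 ± 0.590 FPKM in sham females, 8.07 ± 1.44 FPKM in bleomycin males and 9.71 ± 0.645 FPKM in sham males (SD, n = 5), and neither response passed the test alone. Among the 18 lower ones, ENSRNOG00000067038 changed in opposite directions. It had 12.1, 10.6, 10.6, 7.62 and 11.7 FPKM in bleomycin females, against 16.9, 13.6, 17.9, 15.0 and 16.9 FPKM in sham females. In males it had 15.9, 22.6, 11.1, 11.4 and 20.3 FPKM in bleomycin males, against 11.2, 13.3, 14.05, 9.31 and 8.33 FPKM in sham males. The female groups did not overlap, and the male groups did. Its log2 fold change was -0.65 ± 0.17 (adjusted p = 0.0098) in females and 0.48 ± 0.17 (adjusted p = 0.029) in males. The male call was lost on leaving out any of 5 libraries, and the 2 highest bleomycin males, 2 and 5, are Alb libraries. ENSRNOG00000063182, 788 bp past the end of Dedd2 (a death effector domain protein), fell in females by a log2 fold change of -1.04 ± 0.14 (adjusted p = 2.8e-05), with 4.74 ± 0.562 FPKM in bleomycin females and 9.47 ± 1.63 FPKM in sham females. Its male value was -0.27 ± 0.14 (adjusted p = 0.14). Dedd2 changed by -0.75 ± 0.14 (adjusted p = 0.00063) and -0.20 ± 0.14 (adjusted p = 0.25).

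**Figure D4:**
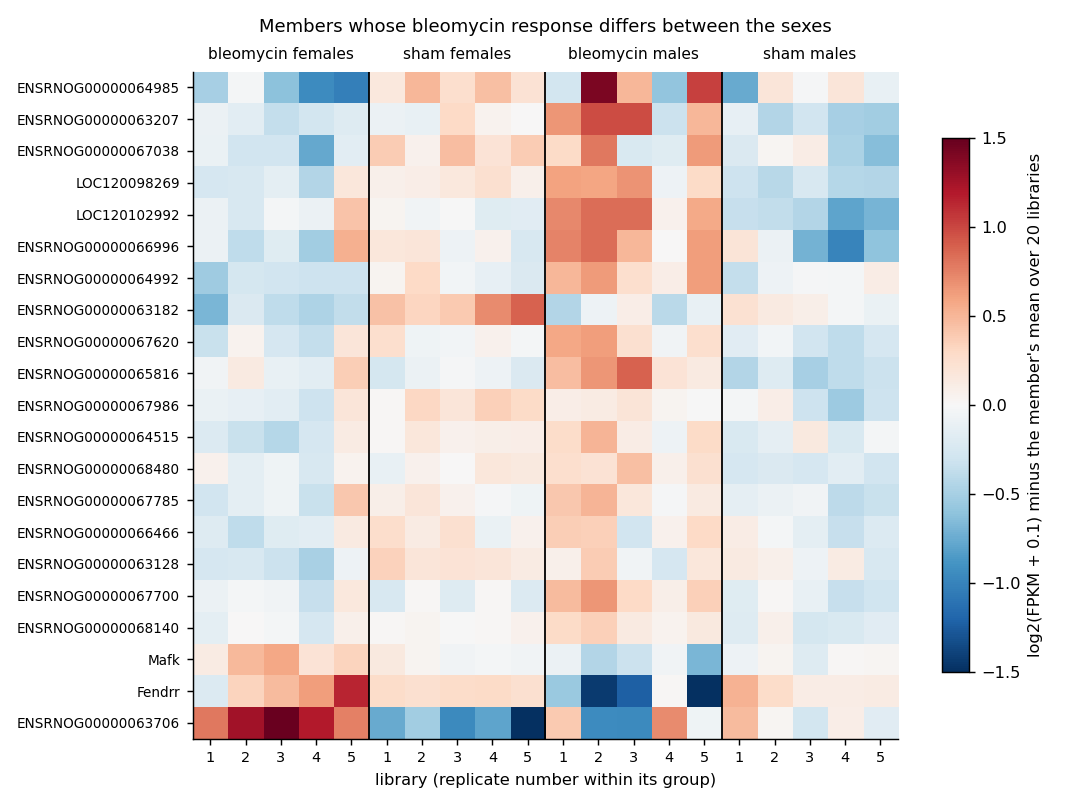
Heat map of the 21 members whose bleomycin response differed between the sexes, in the 20 libraries, as log2(FPKM + 0.1) minus the member's mean, with colours saturating at 1.5 either way. In most of the 18 upper rows bleomycin males 1, 2, 3 and 5 are the reddest libraries and bleomycin male 4 is paler, and in the 3 lower rows bleomycin females are the reddest.

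Between the injured lungs, 23 members were higher and 49 lower in bleomycin females than in bleomycin males, 21.2% of the members against 20.4% of all tested genes (11.7% higher and 8.72% lower). At least 2-fold differences were called in 8 higher and 4 lower members, where 4.28% of all tested genes had one. This count depended on the fit: with only these 2 groups in the model 1 member was called, without the 5 Alb libraries 19, and without bleomycin male 4 there were 105. Besides the members above, Tmem271 was higher in females (1.52 ± 0.29 (adjusted p = 0.0031) on the log2 scale). Among the lower ones, ENSRNOG00000067561 had 72.1, 70.5, 41.6, 33.3 and 49.7 FPKM in bleomycin females, against 47.6, 274, 139, 56.6 and 173 FPKM in bleomycin males. The groups overlapped, and the highest male values were in libraries 2 and 5, both Alb libraries. The log2 difference was -1.34 ± 0.36 (adjusted p = 0.016), and without all Alb libraries it was -0.68 (adjusted p = 0.23). ENSRNOG00000063337 was lower in bleomycin females by -1.44 ± 0.35 (adjusted p = 0.011), and -0.94 (adjusted p = 0.14) without the Alb libraries. ENSRNOG00000064985, 2621 bp from Wnt11 with starts facing, had -1.20 ± 0.33, a call lost without bleomycin male 2. No bleomycin female exceeded 1.86 FPKM of it, and the sham male median was 1.87 FPKM. It met the level rule only with bleomycin males counted, so its value is a description, given without a test. ENSRNOG00000065683, past the end of Gatad2b, had -0.88 ± 0.27 (adjusted p = 0.030), a call lost without any of 6 libraries.

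Between the sham lungs, 1 member was called, 0.295% against 0.523% of all tested genes (0.113% higher and 0.409% lower). It was ENSRNOG00000064136 beside Col5a1, lower in sham females, with a log2 difference of -0.88 ± 0.17 (adjusted p = 0.016). The call was lost on leaving out any of 5 libraries (sham females 1, 4 and 5, sham males 4 and 5), with an adjusted p of at most 0.066. Col5a1 itself was lower in sham females by a log2 difference of -1.04 ± 0.20 (adjusted p = 0.020). No member was called higher. At an unadjusted p under 0.05, 43 were higher and 9 lower, and DESeq2 called 8 higher and 1 lower. The fibroblast markers differed in the same 2 groups, with 2 of 4 lower in sham females and no overlap of the summed levels given above.

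Members with the symbols of protein-coding genes mostly changed by under 2-fold. Of the 38, 3 rose and 4 fell in females (median log2 fold change 0.04), and 14 rose and 6 fell in males (median 0.19). That is 18.4% called in females and 52.6% in males, against 21.6% and 41.9% of all tested genes. Rises in males included Timm13, of the inner membrane import system, by 0.59 ± 0.14 (adjusted p = 0.0021), Micos10, of the cristae complex, by 0.51 ± 0.10 (adjusted p = 0.00074), and Urm1, a ubiquitin-like protein, by 0.49 ± 0.11 (adjusted p = 0.0017). Ufm1, another ubiquitin-like protein, rose in both sexes by log2 fold changes of 0.37 ± 0.08 (adjusted p = 0.0025) in females and 0.40 ± 0.08 (adjusted p = 0.00082) in males. Selenow, a selenoprotein, rose in males by 0.63 ± 0.13 (adjusted p = 0.00093). Gid4, the substrate receptor of a ubiquitin ligase, fell in both sexes, with log2 fold changes of -0.52 ± 0.09 (adjusted p = 0.00043) in females and -0.47 ± 0.09 (adjusted p = 0.00058) in males, and the protein-coding row of the same name had -0.32 ± 0.11 (adjusted p = 0.041) and -0.79 ± 0.11 (adjusted p = 2.5e-05). Ubl3, Tcta and Snapc5 also fell in both sexes, the male Tcta call being lost without bleomycin male 2 or sham male 1.

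Overlapping pairs gave values whose strand is uncertain, because use of strand in counting is not stated. Nupr1, a stress-induced chromatin protein, and Nupr1l1 overlap on opposite strands. Nupr1 had 9.03, 10.8, 10.7, 9.64 and 10.5 FPKM in bleomycin females, against 6.89, 6.82, 7.65, 7.24 and 9.06 FPKM in sham females. In males it had 10.2, 19.03, 25.0, 10.8 and 14.3 FPKM in bleomycin males, against 6.42, 5.61, 9.28, 6.47 and 7.81 FPKM in sham males. Both pair members rose in males, Nupr1 by 1.13 ± 0.23 (adjusted p = 0.00079) and Nupr1l1 by 1.14 ± 0.24 (adjusted p = 0.0010), as log2 fold changes. In females the values were 0.39 ± 0.23 (adjusted p = 0.24) and 0.42 ± 0.24 (adjusted p = 0.23). ENSRNOG00000067610 lies within the span of Gpx3 on the other strand. It had 1.34, 2.21, 1.68, 4.18 and 2.43 FPKM in bleomycin females, against 3.57, 2.09, 3.55, 1.85 and 0.975 FPKM in sham females. Male libraries had 4.50, 3.61, 4.04, 2.07 and 3.70 FPKM in bleomycin males, against 1.91, 0.644, 0.222, 0.608 and 1.21 FPKM in sham males. ENSRNOG00000067610 met the level rule only with the bleomycin males counted, as no sham male reached 2 FPKM. Its male log2 fold change of 1.93 ± 0.45 and the gap between its male groups are therefore a description, given without a test. Its female value was -0.04 ± 0.44 (adjusted p = 0.96). For Nupr1 the male groups stood apart.

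The fold changes of members and of the genes beside them were positively correlated. Among 252 pairs within 5 kb in which both could be tested, the log2 fold changes of member and gene had a Spearman rho of 0.52 in females and 0.57 in males, as a description over pairs that share libraries and neighbourhood. In females 23 pairs had both called, 21 of them in the same direction. In males 58 pairs had both called, 41 of them in the same direction. The rho for the 123 members past the end of a gene on the same strand was 0.60 in females and 0.56 in males, and for the 92 that faced a gene end to end 0.56 and 0.66. For the 18 that faced a gene start to start it was 0.46 and 0.50, and for the 19 before the start of a gene on the same strand 0.06 in both sexes. Of these 19 pairs, 5 had both called in males, all 5 in the same direction, and 0 had both called in females. Opposite moves were seen too: in males Abcc1, a drug exporter, fell with a log2 fold change of -0.69 ± 0.22 (adjusted p = 0.018) while ENSRNOG00000067700, 963 bp past its end, rose with 0.53 ± 0.10 (adjusted p = 0.00028).

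**Figure D5:**
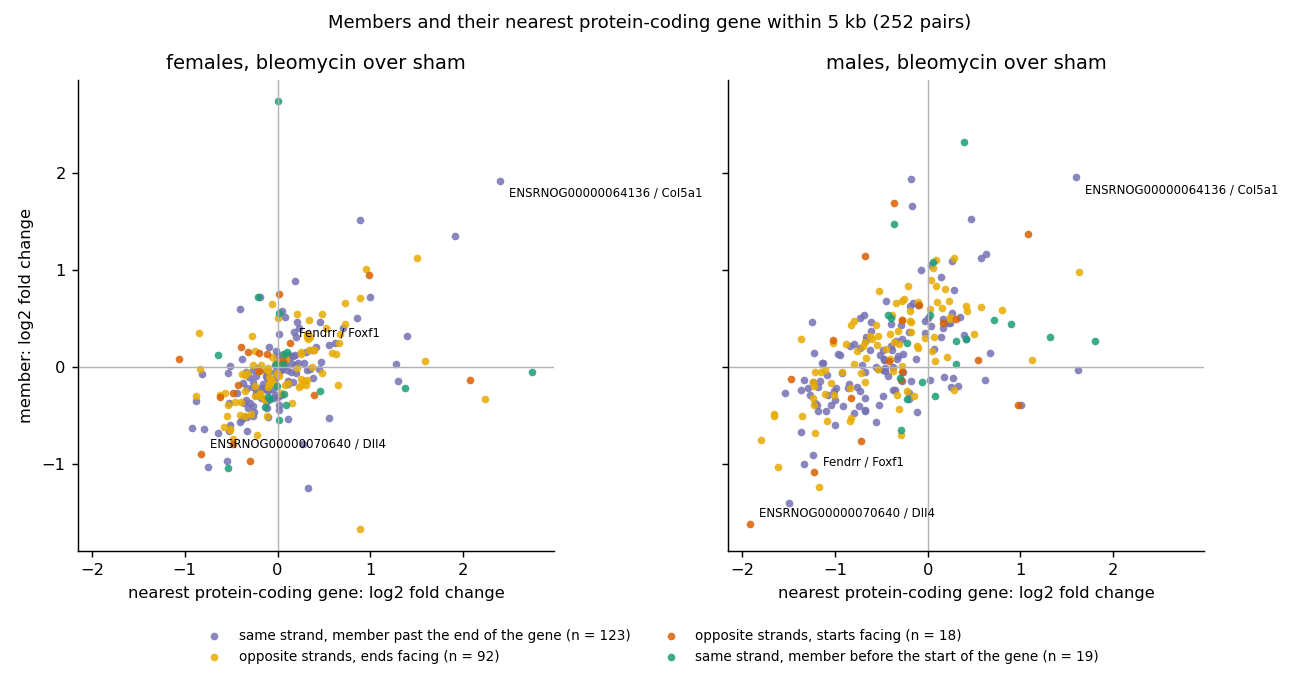
Log2 fold change, bleomycin over sham, of members (vertical axis) against that of the nearest protein-coding gene within 5 kb (horizontal axis), for 252 pairs in females (left) and males (right), coloured by position. The points slope upwards in both panels, and the Fendrr and Foxf1 pair lies near 0 in females and at the lower left in males.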

How the data were processed

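Lung poly-A RNA of 20 rats was sequenced. Per the labels' protocols, RNA integrity numbers were at least 7.0, libraries were made with a stranded TruSeq kit and read as 150-base pairs, reads were trimmed with Cutadapt 1.10 and aligned with HISAT2 2.0, and the authors made the deposited FPKM values with StringTie 1.3.4 and took counts into DESeq2 and edgeR. Per the file headers the same table gives those counts. How they were made whole, and whether strand was used, is not given in the sources used here. Multiples of 4 are over-represented among the deposited counts (the value 4 occurs 7103 times, 3 occurs 3459 times and 5 occurs 2447 times). The labels name a pair of references from different releases, and coordinates follow the table without a known build. The organism field reads Mus musculus, but stock, gene IDs and design text are those of rat.

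The members and lists were chosen with earlier results of these data known. A gene was tested if 5 or more samples reached 0.5 FPKM, which took in 15875 genes with all 339 members and left out 7924. The main test was edgeR 4.0.16 in R 4.3.3 on the counts (TMM, robust quasi-likelihood fit, 1 mean per group, all 20 libraries, 16 residual degrees of freedom, prior count 0.125), two-sided, with Benjamini-Hochberg adjustment over all tested genes. Every adjusted p is from it unless another tool is named. Errors of log2 fold changes are standard errors, and those of FPKM means are SDs over 5 animals. The scripts were tested on simulated counts. DESeq2 1.42.0, limma 3.58.1 on log2(FPKM + 0.1) and log2(FPKM + 1), 2 other scalings, 2 other filters, no robust estimation, only the groups compared, counts divided by 4, a replicate block, a log2 fold change of at least 1, the 5 libraries with Alb of at least 50 FPKM left out (alone, or with bleomycin male 4, added after seeing the data) and each library left out were alternatives. The naming rule took all members with a symbol, the up to 6 largest called rises and falls per comparison and the 5 highest members. It also took 2 rows on either side of the level rule. Not every member that it took is described here, and only a part of those with a symbol is. The snoRNA-containing members and those whose responses differed were added after their values were seen. No sequence is printed because no rat genome was used here.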

Additional observations from a re-analysis of the deposited data

Results flagged for a closer look

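One value stood apart within its group: LOC120102992 had 16.6 FPKM in bleomycin female 5, where the other 4 bleomycin females had 10.5 to 12.1 FPKM. The gap to the nearest library was 0.74 of the group's range, above Dixon's critical value of 0.71 for 5 samples. The 4 groups of each of 28 members were examined in this way, and chance flags about 1 in 20 groups.

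The bleomycin response differed between females and males in 21 members, by the edgeR test of the difference itself at an adjusted p under 0.05. The values are the female log2 fold change minus the male one. It was below 0 for ENSRNOG00000064985 (-1.61), ENSRNOG00000063207 (-1.27), ENSRNOG00000067038 (-1.13), LOC120098269 (-1.12), LOC120102992 (-1.07), ENSRNOG00000066996 (-1.07), ENSRNOG00000064992 (-0.83), ENSRNOG00000063182 (-0.77) and ENSRNOG00000067620 (-0.74). Smaller differences below 0 were found for ENSRNOG00000065816 (-0.69), ENSRNOG00000067986 (-0.65), ENSRNOG00000064515 (-0.62), ENSRNOG00000068480 (-0.61), ENSRNOG00000067785 (-0.58), ENSRNOG00000066466 (-0.56), ENSRNOG00000063128 (-0.54), ENSRNOG00000067700 (-0.51) and ENSRNOG00000068140 (-0.45). The female response was the higher one for ENSRNOG00000063706 (2.15), Fendrr (1.33) and Mafk (0.61). The adjusted p of these 21 lay between 0.013 and 0.048. ENSRNOG00000064985 met the level rule only with bleomycin males counted, so its difference is a description.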

How the results depend on the processing

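Leaving out 1 library at a time gave 52 to 91 members called in females (75 with all libraries), 108 to 143 in males (133), 39 to 105 between the bleomycin groups (72), 0 to 6 between the sham groups (1) and 10 to 59 for the difference of the responses (21). The difference count was 59 without bleomycin male 4 and 10 to 12 without bleomycin females 2, 3 or 4, sham females 2, 3, 4 or 5, bleomycin male 2, or sham males 4 or 5. Between the bleomycin groups it was 41 without bleomycin male 2, and 43, 44 and 39 without bleomycin females 2, 3 and 4. Between the sham groups it was 6 without bleomycin male 3, 2 without bleomycin male 4, and 0 without sham females 1, 4 or 5 or sham males 4 or 5. With only the groups compared in the fit, 106 were called in females, 87 in males, 1 between the bleomycin groups and 7 between the sham groups. That fit cannot be made for the difference. A log2 fold change of at least 1 left 13 in females, 33 in males, 12 between the bleomycin groups, 0 between the sham groups and 8 for the difference. DESeq2 gave 9 between the sham groups and 42 for the difference, and testing with no filter gave 12 for the difference. Leaving out the Alb libraries gave 66 in females, 92 in males, 19 between the bleomycin groups and 1 for the difference. Leaving out bleomycin male 4 as well gave 71, 109, 74 and 35. The cause of these shifts was not tested.

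With the replicate number as a block, 75 members were called in females, 130 in males, 67 between the bleomycin groups, 0 between the sham groups, so that the call of ENSRNOG00000064136 was lost, and 24 for the difference. The labels do not say what a number marks. The deviations of same-numbered libraries correlated at -0.14 to 0.43. Over 0.1 were 0 of 5 pairs in females, 2 in males, 3 between the bleomycin groups and 3 between the sham groups, and as not every pair passed, the numbers were not used to pair animals. As a hint from the data, 8 of 10 libraries correlated best with their own number between the sham groups, 4 between the bleomycin groups, 5 in males and 1 in females. Of 143 calls of named members, 0 reversed and 28 held under every alternative run. The others lost significance under at least 1, and 95 held with any single library left out. Depth limits members with few reads: 6 members had a count of 0 in some library.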
